A study of Mus musculus with 16 samples.

Results

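Gene expression in the testis of mouse embryos with a knock-out (KO) of Wnt4 was compared between embryonic day 14.5 (E14.5) and embryonic day 12.5 (E12.5). The comparison takes all 4 KO testis arrays of the study, 2 per stage, out of 16 arrays, and every gene that had a usable probe set, 12332 in all. Its groups are Wnt4 KO testis at E14.5 and Wnt4 KO testis at E12.5. The same stage change was read in wild-type (WT) testis at E14.5 and E12.5 and in Wnt4 KO ovary at E14.5 and E12.5, with 2 arrays in each of these groups. The 4 WT ovary arrays entered the choice of genes and probe sets to test, the shared estimate of spread and the ovary level of Xist. Whole embryonic gonads were dissected from embryos picked by morphology and kept frozen until genotyping by PCR. The labels give no treatment, strain, deleted part of Wnt4 or driver, so in which cells Wnt4 was lost is not known here. Arrays of a group are labelled as biological replicates, but whether each held RNA of 1 embryo or of several is not stated, and the p-values reflect the spread of these arrays alone. Titles of the male arrays name an ovary while their source field names a testis, and they were treated as testis.

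Between these stages the Sertoli cells of the mouse testis enclose the germ cells in cords, and fetal Leydig cells arise between the cords and begin to make androgens from cholesterol. Male germ cells stop dividing and switch on the PIWI-interacting RNA (piRNA) pathway, which silences retrotransposons, while germ cells of the ovary enter meiosis. Wnt4 encodes a secreted signalling protein known for its part in ovary development, where its loss lets steroid-making cells appear, and it is also made in the early testis and in the neighbouring mesonephros.

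Values are deposited array intensities on a linear scale, changes are differences of log2(intensity + 4), E14.5 minus E12.5, and SE is the standard error of that difference. Adding 4 understates the change of dim genes. Changes were tested with limma across all genes, with Benjamini-Hochberg adjustment and a threshold of 0.05, and each group holds n = 2 arrays, a number that limits the precision of every value.

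The sex and tissue of the arrays were read first. Eif2s3y, Kdm5d and Uty, all on the Y chromosome, had intensities of 856 to 1350.3, 249 to 432 and 101 to 139 over the 4 KO testis arrays. Xist, the RNA of the inactive X chromosome in female cells, read 7.95 and 788 in KO testis at E14.5, against 7.99 and 7.97 at E12.5. The second E14.5 array therefore stands apart, and its Xist level equals 16.6% of the mean of the ovary arrays of that stage. Replicate 2 of WT testis at E14.5 reached 22.9% by the same measure, and Y-linked genes in replicate 2 of KO ovary at E12.5 reached 18.7% of the testis level. In WT ovary, Y-linked genes reached 20.8% of that level in replicate 2 of E14.5 and 1.44% in replicate 1. The E12.5 replicates 1 and 2 of WT ovary reached 18.9% and 7.82%. The WT ovary arrays enter the shared estimate of spread, so the adjusted p-values for KO testis depend on them too. In KO testis the ratio of 3' to 5' control probe sets, a sign of RNA quality, was 1.14 and 1.36 at E14.5, against 1.76 and 1.29 at E12.5. It was thus highest of the 4 in replicate 1 of E12.5. Mean intensity per array lay between 272 and 288. The 2 arrays of WT testis at E12.5 were nearly alike, with a standard deviation of 0.142 between their log2 values against 0.335 to 0.593 in the other 7 groups, and what they share is not stated.

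Markers of testis cells were present in all 4 KO arrays. Sox9, the transcription factor that sets Sertoli cell fate, read 95.1 and 101 at E14.5, against 119 and 148 at E12.5 (log2 change -0.42, adjusted p = 0.747). Ptgds, a prostaglandin D synthase of Sertoli cells, read 2506 and 2057 at E14.5, against 1560.0 and 1364 at E12.5 (adjusted p = 0.809), and Dmrt1, a transcription factor of Sertoli and germ cells, read 654 and 758 at E14.5, against 440.3 and 481 at E12.5 (adjusted p = 0.68). All 3 markers were thus well above the median intensity of an array at both stages. None of the 3 passed with the spread taken from the 4 KO testis arrays alone. Adjusted p was then 0.468 for Sox9, 0.0994 for Ptgds and 0.144 for Dmrt1. Amh, the hormone that removes the Müllerian duct, was dim, with 42.7 and 31.3 at E14.5, against 11.5 and 19.7 at E12.5 (adjusted p = 0.114). Wnt4 itself read 277 and 371 at E14.5, against 413 and 231 at E12.5, with overlapping stages and a log2 change of 0.05 (SE 0.36, adjusted p = 0.964). In WT testis Wnt4 read 753 and 512 at E14.5, against 502 and 473 at E12.5. Where the probes lie relative to the deleted part is not known here, so the level of Wnt4 does not check the genotype label.

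Of the 12332 genes, 480 changed between the stages in KO testis, or 3.89% of those tested: 330 were higher at E14.5 (2.68%) and 150 were lower (1.22%). At an unadjusted p under 0.05 there were 2006. The median change over all genes was -0.02. In whole gonads, fewer cells of a type and less RNA per cell cannot be told apart. The 480 genes were chosen by their change in these same arrays, so signs kept with arrays left out are only a description. The number of calls rested on single arrays: 179 genes passed without replicate 1 of E12.5, 499 without replicate 2 of E12.5, 225 without replicate 1 of E14.5 and 250 without replicate 2 of E14.5. Of the 480 genes, 171, 317, 201 and 228 passed in those same 4 fits, and none changed sign. When the Xist-positive array of E14.5 and the E12.5 array with the high 3' to 5' ratio were both left out, 96 genes passed, of which 89 were among the 480, again with no change of sign. Of the 84 named genes that passed, 44 also passed with each of the 4 KO testis arrays left out in turn, and the paragraphs that follow say which calls did not.

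**Figure D1:**
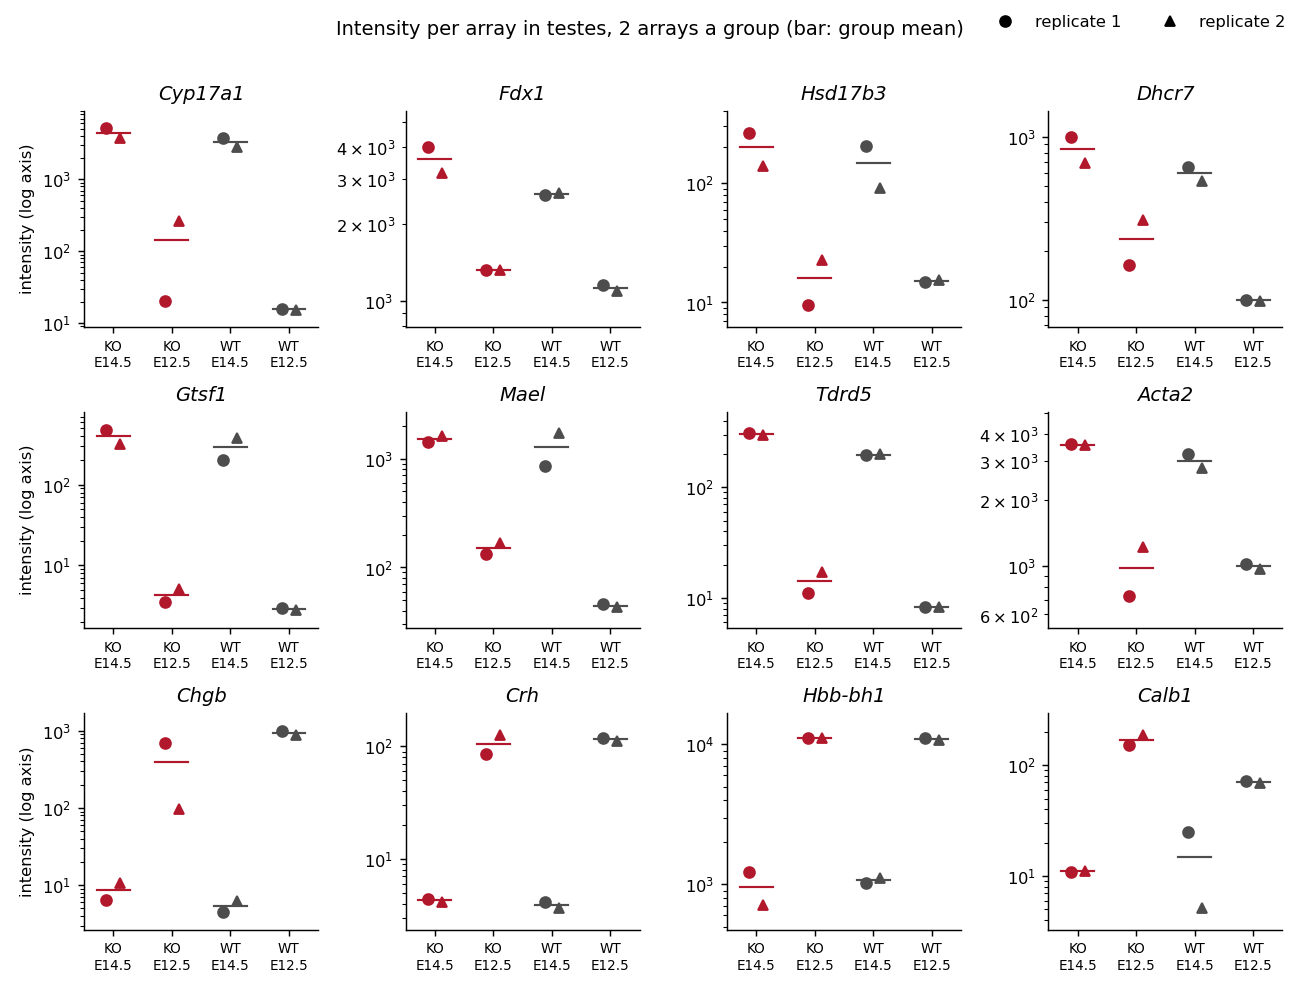
Intensity (log axis) of 12 genes in the 2 arrays of KO testis at E14.5 and E12.5 and of WT testis at E14.5 and E12.5; circles are replicate 1, triangles replicate 2 and bars group means. Gtsf1 reads 475 and 320.1 in KO testis at E14.5, against 3.49 and 5.11 at E12.5, and the 2 KO arrays of E12.5 lie far apart for Cyp17a1 and Chgb.

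Genes of the piRNA pathway formed the list with the most calls for its size. Of 15 tested, 10 rose and none fell, beside 2.68% and 1.22% of all genes tested. The list median was 2.07 against -0.02 over all genes. Gtsf1, a zinc finger partner of PIWI proteins, had the largest rise of the genes past the threshold. It read 475 and 320.1 at E14.5, against 3.49 and 5.11 at E12.5, so that the stages stand far apart, with a log2 change of 5.58 (SE 0.28, adjusted p = 3.95e-07). A second Gtsf1 probe set rose by 4.20 on the log2 scale. Mael, a component of the cytoplasmic granules where piRNAs act, read 1432 and 1623 at E14.5, against 134 and 167 at E12.5, also without overlap, with a log2 change of 3.31 (SE 0.52, adjusted p = 0.00237).

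The upstream windows of these 2 genes are shown because Gtsf1 had the largest rise and Mael is a marker gene of this comparison, the first starting near the floor at E12.5 and the second well above it. Each is the 250 bases before the gene start in RefSeq, build GRCm38.p6, written 5′ to 3′ on the gene's strand (minus for both), with CG dinucleotides, the sites of DNA methylation, in capitals.
Gtsf1, chr15:103430428-103430677: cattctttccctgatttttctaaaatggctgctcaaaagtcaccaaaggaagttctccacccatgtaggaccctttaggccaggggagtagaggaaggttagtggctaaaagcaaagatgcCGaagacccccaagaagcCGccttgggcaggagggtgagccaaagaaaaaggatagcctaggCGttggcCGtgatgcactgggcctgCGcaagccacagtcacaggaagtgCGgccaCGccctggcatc
Mael, chr1:166238745-166238994: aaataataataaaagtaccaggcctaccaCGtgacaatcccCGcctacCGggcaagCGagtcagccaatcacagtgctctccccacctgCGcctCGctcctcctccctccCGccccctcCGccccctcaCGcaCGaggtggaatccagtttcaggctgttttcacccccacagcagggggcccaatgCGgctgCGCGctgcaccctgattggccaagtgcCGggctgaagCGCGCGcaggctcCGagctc
The Gtsf1 window holds 7 CG dinucleotides and the Mael window 18, beside a median of 15 over 12766 windows of genes tested and 6 over all 32851 windows of the table. The 19 windows of the 12 tested piRNA genes that had one held a median of 14, and the 340 windows of genes called higher in KO testis held a median of 11.

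Tdrd9, an RNA helicase of the pathway, read 49.01 and 47.2 at E14.5, against 7.09 and 7.35 at E12.5 (log2 change 2.22, SE 0.15, adjusted p = 3.54e-06). Its arrays are nearly level within each stage. Mov10l1, the helicase that feeds piRNA precursors to PIWI proteins, read 187 and 273 at E14.5, against 16.7 and 24.3 at E12.5 (log2 change 3.25, adjusted p = 6.21e-05). Piwil4, the PIWI protein that acts in the nucleus, read 99.9 and 202 at E14.5, against 5.57 and 7.79 at E12.5 (log2 change 3.79, adjusted p = 5.11e-04). In both genes replicate 2 was the higher array at each stage. Tdrd5, a Tudor domain protein, read 309 and 295 at E14.5, against 11.1 and 17.1 at E12.5 (log2 change 4.10, adjusted p = 5.39e-04). The remaining 4 calls, named after their values were seen, were Piwil2, Tdrd7, Asz1 and Tdrd1, with log2 changes of 2.57, 1.82, 2.07 and 1.84. Tdrd7 did not pass without replicate 1 of E12.5 (1.44), Asz1 not without replicate 2 of E14.5 (1.84), and Tdrd1 not without replicate 1 of E14.5 (1.46) or replicate 1 of E12.5 (1.76). Between 8 and 10 members passed whichever array was left out, and 3, Gtsf1, Mov10l1 and Tdrd9, passed with both doubtful arrays out. In WT testis 13 members rose, beside 6.67% of all genes tested, with a median of 2.59. In KO ovary 8 of the 15 rose, beside 5.34% of all genes tested, with a median of 1.87. The difference between KO testis and KO ovary passed for 4 of the 15, beside 1.28% of all genes tested.

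Of 8 tested genes in the list of DNA methylation enzymes 2 rose, beside 2.68% of all genes tested, none fell, and the median was 0.26. Dnmt3l, the cofactor of the de novo methyltransferases, read 28.4 and 18.7 at E14.5, against 5.45 and 4.20 at E12.5 (log2 change 1.62, adjusted p = 0.00305). Morc1, an ATPase needed for transposon silencing in male germ cells, read 618 and 641 at E14.5, against 69.6 and 26.9 at E12.5 (log2 change 3.73, adjusted p = 0.00535). Both genes were higher in both E14.5 arrays than in both E12.5 arrays, as were 23.9% of all genes tested. The Morc1 arrays of E12.5 lie apart, and its change was 4.36 without replicate 1 and 3.10 without replicate 2 of that stage.

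Of 13 tested genes that mark germ cells of either sex, 5 rose, beside 2.68% of all genes tested, and none fell. The median was 1.95. Tex15, which helps direct methylation to transposons, read 812 and 973 at E14.5, against 111 and 91.6 at E12.5 (log2 change 3.09, SE 0.35, adjusted p = 3.28e-04). Tex14, a protein of the bridges between germ cells, read 612 and 541 at E14.5, against 133 and 134 at E12.5 (log2 change 2.07, adjusted p = 0.00244). Both passed whichever array was left out. Taf7l, a germ cell variant of a general transcription factor subunit, read 114 and 323 at E14.5, against 7.72 and 7.55 at E12.5, with replicate 2 the higher at E14.5 (log2 change 4.08, adjusted p = 0.00479). Its change was 3.34 without that array and 4.81 without replicate 1, and the call was lost without replicate 2 of E14.5 or replicate 1 of E12.5. Tex11, an X-linked meiosis gene, read 60.3 and 149 at E14.5, against 13.3 and 17.3 at E12.5 (log2 change 2.37, adjusted p = 0.0331), with 1.75 without replicate 2 of E14.5 and 2.996 without replicate 1, and it passed only when replicate 1 of E14.5 was the array left out. Stk31, a Tudor domain kinase of germ cells, had a log2 change of 2.01 (adjusted p = 0.0433) and passed with no array left out. The general germ cell markers Ddx4 and Dazl did not pass: Ddx4, an RNA helicase, read 1509 and 2015 at E14.5, against 570.4 and 687 at E12.5 (log2 change 1.47, adjusted p = 0.0504), and Dazl, an RNA-binding protein, read 2756 and 3689 at E14.5, against 2144 and 2287 at E12.5 (log2 change 0.53, adjusted p = 0.259). Both genes were bright at both stages.

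Genes of pluripotency and of Nodal signalling, active in germ cells before and during sex determination, were read next. The share called was 15.8% in the pluripotency list and 33.3% in the Nodal and Nanos2 list, beside 3.89% of all genes tested. Tfap2c, a transcription factor of early germ cells, read 17.2 and 28.2 at E14.5, against 122 and 115 at E12.5 (log2 change -2.23, adjusted p = 0.00954). Esrrb, a pluripotency factor, read 12.04 and 12.2 at E14.5, against 30.3 and 20.4 at E12.5 (log2 change -0.84, adjusted p = 0.0238). Alpl, the alkaline phosphatase used to stain germ cells, went the other way and read 149 and 211 at E14.5, against 33.4 and 60.03 at E12.5 (log2 change 1.89, adjusted p = 0.0139). These were the 3 calls among 19 tested pluripotency genes, the median of which was 0.30, and none of the 3 passed without replicate 1 of E12.5. Tfap2c was also lost without replicate 1 of E14.5, Alpl without replicate 2 of E14.5, and Esrrb without replicate 1 or replicate 2 of E14.5. Pou5f1, the pluripotency factor OCT4, read 624 and 532 at E14.5, against 243 and 226 at E12.5, and did not pass (adjusted p = 0.535). Its stages did not overlap, with E14.5 the higher, as in 23.9% of all genes tested. With the spread taken from the 4 KO testis arrays alone, Pou5f1 passed (adjusted p = 0.016) and Esrrb did not (adjusted p = 0.113). Tdgf1, a co-receptor of Nodal, fell, with 8.89 and 10.4 at E14.5, against 45.3 and 47.6 at E12.5 (log2 change -1.89, SE 0.17, adjusted p = 6.21e-05), and passed whichever array was left out. Lefty2, an inhibitor of Nodal, read 105 and 136 at E14.5, against 239 and 326 at E12.5 (adjusted p = 0.0486) and lost its call without any 1 of the 4 arrays. Otx2, a homeobox gene in the same list, read 26.2 and 59.4 at E14.5, against 10.3 and 19.4 at E12.5 and did not pass (adjusted p = 0.0736). Thus 2 of 6 tested members of the Nodal and Nanos2 list fell, and the list median was -0.99.

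Meiotic genes rose in part, with 4 calls among 22 tested members, beside 2.68% of all genes called higher. None was lower, and the median was 0.50. Sycp1, a filament of the synaptonemal complex that joins chromosomes, read 76.9 and 289.8 at E14.5, against 5.24 and 8.55 at E12.5 (log2 change 3.84, adjusted p = 0.00598). Sycp2, of the lateral element, read 146 and 294 at E14.5, against 22.6 and 11.9 at E12.5 (log2 change 3.36, adjusted p = 0.00503). Syce1, of the central element, read 86.1 and 117 at E14.5, against 30.00 and 38.3 at E12.5 (log2 change 1.46, adjusted p = 0.0251), and Sycp3, of the lateral element, read 659 and 1297 at E14.5, against 170.0 and 199 at E12.5 (log2 change 2.31, adjusted p = 0.0496). In all 4 genes replicate 2, the Xist-positive array, was the higher at E14.5. Without it the changes were 2.91 for Sycp1, 2.87 for Sycp2, 1.25 for Syce1 and 1.82 for Sycp3, and no member of the list passed. Without replicate 1 of E14.5, Sycp1 changed by 4.77. Sycp1 was also lost without replicate 1 of E12.5, and Syce1 and Sycp3 were lost without any 1 of the 4 arrays. Stra8, the gene that opens meiosis in response to retinoic acid, read 9.88 and 64.2 at E14.5, against 5.01 and 5.73 at E12.5 and did not pass (adjusted p = 0.351). In KO ovary Stra8 read 1149 and 1081 at E14.5, against 4.82 and 5.58 at E12.5.

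Other ovary genes also read highest in that array. Foxl2, the transcription factor that maintains granulosa cells, read 7.76 and 22.2 at E14.5, against 9.57 and 13.1 at E12.5 (adjusted p = 0.871), and in KO ovary it read 176 and 193 at E14.5, against 24.2 and 23.02 at E12.5. Fst, the activin antagonist follistatin, read 51.8 and 191 at E14.5, against 63.6 and 36.3 at E12.5 (adjusted p = 0.4), and in KO ovary 182 and 341 at E14.5, against 81.3 and 55.5 at E12.5. In both genes replicate 2 of E14.5 is the highest of the KO testis arrays. The summed intensity of the 15 pre-granulosa genes was 986 and 1461 at E14.5, against 1113 and 1126 at E12.5, and that of the 22 meiotic genes was 2297 and 3733, against 1698 and 1646. With the share of opposite-sex RNA in each array as a covariate, 3 meiotic genes passed, Sycp1, Sycp2 and Syce1, and the change of Foxl2 was -0.13 in place of 0.20. Of the pre-granulosa genes 1, Nr0b1, passed, and it fell. With that covariate Ctnna2, a catenin named here after its call was seen, passed as well and was higher.

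**Figure D2:**
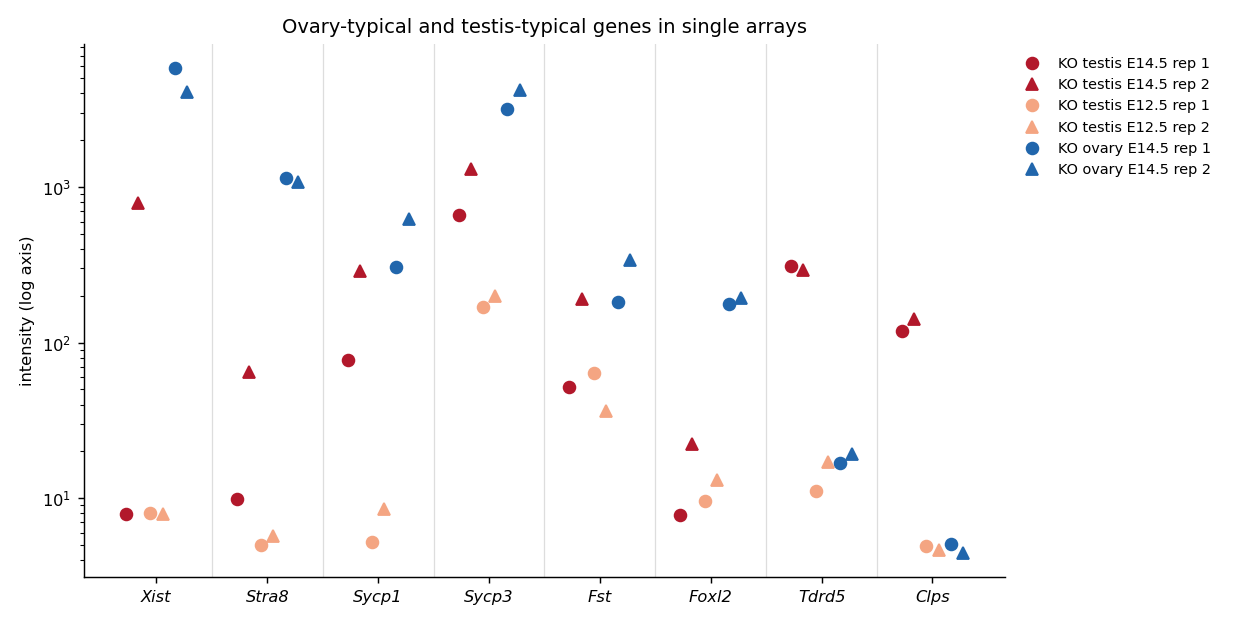
Intensity (log axis) of 8 genes in single arrays of KO testis at E14.5 (red), KO testis at E12.5 (orange) and KO ovary at E14.5 (blue); circles are replicate 1 and triangles replicate 2. Xist, Stra8, Sycp1, Sycp3, Fst and Foxl2 are higher in replicate 2 than in replicate 1 of KO testis at E14.5, while Tdrd5 and Clps are alike in both arrays and low in KO ovary.

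Steroid synthesis genes of fetal Leydig cells differed widely between the stages and also between the E12.5 arrays. Cyp17a1, the enzyme that turns pregnane steroids into androgens, read 5193 and 3721 at E14.5, against 20.1 and 268 at E12.5, so that the E12.5 arrays differ from each other by far more than the E14.5 arrays do. Its log2 change of 5.76 (SE 1.57) missed the threshold (adjusted p = 0.0592). It was 4.02 without replicate 1 and 7.51 without replicate 2 of E12.5, and passed in the second case. Cyp11a1, the enzyme that cleaves the cholesterol side chain, read 3035 and 1906 at E14.5, against 50.1 and 202 at E12.5 (log2 change 4.51, adjusted p = 0.0946). Star, which carries cholesterol into mitochondria, read 1072 and 805 at E14.5, against 117 and 192 at E12.5 (log2 change 2.60, adjusted p = 0.14), and Hsd3b1, the next enzyme of the pathway, read 3111 and 2551 at E14.5, against 384 and 679 at E12.5 (log2 change 2.45, adjusted p = 0.0521). Other Star probe sets changed by 3.62 and 3.69. When every probe set was tested with limma the second of these passed (adjusted p = 0.00685) and the first did not (adjusted p = 0.0926). In these 4 genes both E14.5 arrays are above both E12.5 arrays, as in 23.9% of all genes tested, and replicate 2 is the higher at E12.5. With the spread taken from the 4 KO testis arrays alone, all 4 passed (adjusted p = 0.016 for Cyp17a1, 0.00565 for Cyp11a1, 0.00352 for Star and 0.00352 for Hsd3b1).

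The calls of the main test in the Leydig list were 3 of 8 tested members, all higher, beside 2.68% of all genes tested. The list median was 2.18. Fdx1, the ferredoxin that gives electrons to the mitochondrial P450 enzymes, read 3997 and 3164 at E14.5, against 1321 and 1325 at E12.5 (log2 change 1.42, SE 0.20, adjusted p = 8.86e-04) and passed whichever array was left out. Scarb1, the receptor that takes up cholesterol from lipoproteins, read 1823 and 1651 at E14.5, against 358 and 585 at E12.5 (log2 change 1.91, adjusted p = 0.00441), and lost its call without replicate 1 of E12.5 (1.56). Gramd1b, a carrier of cholesterol between membranes, read 131 and 146 at E14.5, against 52.1 and 45.3 at E12.5 (log2 change 1.44, adjusted p = 0.0386), and lost it without any 1 array. In WT testis 7 of the 8 rose, beside 6.67% of all genes tested.

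The upstream window of Cyp11a1 is shown because it is the one among 5 windows of 4 tested Leydig genes in the RefSeq table that holds the letters AGGTCA, the core of sites bound by the steroidogenic factor NR5A1 and by other nuclear receptors. It covers 250 bases on the plus strand of build GRCm38.p6, and the capitals mark AGGTCA, searched on both strands as AGGTCA and TGACCT.
Cyp11a1, chr9:58014702-58014951: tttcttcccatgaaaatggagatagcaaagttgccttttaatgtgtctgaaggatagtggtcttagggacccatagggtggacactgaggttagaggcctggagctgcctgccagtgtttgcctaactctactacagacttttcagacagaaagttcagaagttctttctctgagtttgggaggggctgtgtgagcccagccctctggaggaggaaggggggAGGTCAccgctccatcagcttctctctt
The same letters occur in 14% of all windows of the table and in 10.6% of those of genes tested. They occur in 10.9% of windows of genes called higher and in 8.33% of windows of genes called lower in KO testis.

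Genes of cholesterol synthesis rose together with 9 calls among 19 tested, beside 2.68% of all genes called higher. None was lower, and the median was 1.04. All 19 were higher in both E14.5 arrays than in both E12.5 arrays, a pattern seen in 23.9% of all genes tested. Dhcr7, which makes the last step to cholesterol, read 995 and 697 at E14.5, against 164 and 309 at E12.5 (log2 change 1.86, adjusted p = 0.0131). Nsdhl, a dehydrogenase of the pathway, read 791 and 642 at E14.5, against 293 and 343 at E12.5 (log2 change 1.16, adjusted p = 0.00551). Cyp51, the lanosterol demethylase, read 840.1 and 798 at E14.5, against 381 and 431 at E12.5 (log2 change 1.01, adjusted p = 0.0101). The stages do not overlap in any of these 3 genes. Tm7sf2, a sterol reductase, read 139 and 49.8 at E14.5, against 9.13 and 15.6 at E12.5 (log2 change 2.45, adjusted p = 0.00964), and its change was 1.74 without replicate 1 and 3.15 without replicate 2 of E14.5. Fdft1, the squalene synthase, read 1853 and 1669 at E14.5, against 1037 and 1059 at E12.5 (log2 change 0.74, adjusted p = 0.0146). No member passed without replicate 1 of E14.5 or without replicate 1 of E12.5, 4 passed without replicate 2 of E14.5 and 5 without replicate 2 of E12.5, and the list median stayed between 0.97 and 1.09. The 13 calls in WT testis were likewise all higher, beside 6.67% of all genes tested, and in KO ovary the list median was -0.04.

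Regulators of steroid-making cells moved less, with 10% called, beside 3.89% of all genes tested. Of 10 tested, Nr0b1, which encodes DAX1, a repressor of steroid genes, was the one call and read 28.1 and 18.3 at E14.5, against 74.8 and 70.01 at E12.5 (log2 change -1.51, adjusted p = 0.0078), a call lost without replicate 2 of E14.5 (-1.25) or replicate 1 of E12.5 (-1.47). Inha, the alpha chain of inhibin, read 1129 and 809.5 at E14.5, against 151 and 309.6 at E12.5 and did not pass (adjusted p = 0.0586). Genes of the adrenal cortex, a tissue that lies beside the early gonad, gave no call among 5 tested, with 3 of the 5 higher and 1 lower in both E14.5 arrays than in both E12.5 arrays, beside 23.9% and 25.9% of all genes tested. Cyp11b1, an enzyme of adrenal steroid synthesis, read 53.8 and 30.7 at E14.5, against 16.8 and 8.72 at E12.5 (adjusted p = 0.0848). Cyp21a1, the adrenal 21-hydroxylase, read 30.98 and 12.05 at E14.5, against 10.9 and 6.84 at E12.5 (adjusted p = 0.188), and passed without replicate 2 of E14.5, with a log2 change of 1.46 in place of 0.90.

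Among Sertoli genes 4 of 22 tested rose, beside 2.68% of all genes tested, none fell, and the median was 0.52. Hsd17b1, a steroid dehydrogenase, read 166 and 112 at E14.5, against 11.4 and 15.7 at E12.5 (log2 change 3.01, SE 0.38, adjusted p = 5.92e-04), and passed whichever array was left out. Hsd17b3, which makes testosterone in Sertoli cells of the mouse fetus, read 263 and 139 at E14.5, against 9.52 and 22.7 at E12.5 (log2 change 3.36, adjusted p = 0.00458). Gstm6, a glutathione transferase, read 477 and 229 at E14.5, against 32.1 and 57.4 at E12.5 (log2 change 2.83, adjusted p = 0.0248). In these 3 genes replicate 1 was the higher at E14.5 and the lower at E12.5. Clu, the secreted chaperone clusterin, read 6168 and 6568 at E14.5, against 2352 and 2982 at E12.5 (log2 change 1.26, adjusted p = 0.00515). Without replicate 1 of E12.5 only Hsd17b1 passed, with 2.87 for Hsd17b3, 2.45 for Gstm6 and 1.09 for Clu, and without replicate 1 of E14.5 Hsd17b3 and Gstm6 did not pass. Sostdc1, a secreted BMP and WNT antagonist, read 587 and 634 at E14.5, against 87.6 and 181 at E12.5 and missed the threshold (adjusted p = 0.0544).

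**Figure D3:**
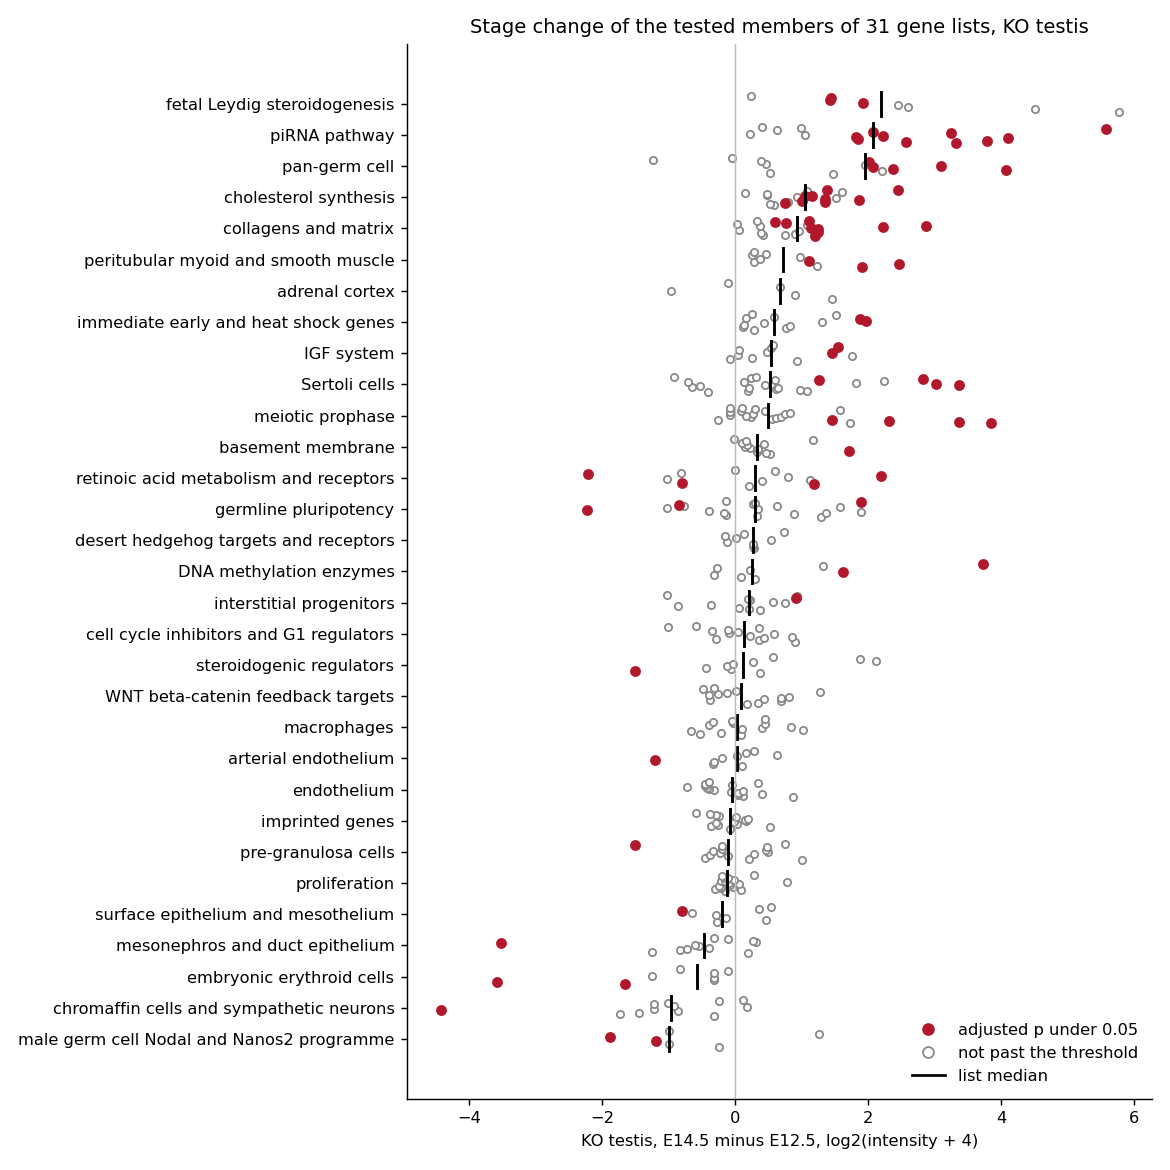
Change of each tested member of 31 gene lists in KO testis, E14.5 minus E12.5, in log2(intensity + 4); filled points passed the adjusted p of 0.05, open points did not, and black bars are list medians. Medians run from 2.18 for Leydig steroid synthesis and 2.07 for the piRNA pathway to -0.99 for the Nodal and Nanos2 list.

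Part of the contractile and matrix genes of the testis stroma rose. Acta2, the smooth muscle actin of peritubular cells and vessels, read 3575 and 3539 at E14.5, against 729 and 1223 at E12.5 (log2 change 1.91, adjusted p = 5.41e-04). Tagln, the actin-binding protein transgelin, read 1021 and 556 at E14.5, against 139 and 127 at E12.5 (log2 change 2.47, adjusted p = 7.18e-04), and Mylk, the myosin light chain kinase, read 1151 and 1222 at E14.5, against 503 and 594 at E12.5 (log2 change 1.11, adjusted p = 0.0061). All 3 were higher in both E14.5 arrays than in both E12.5 arrays, as were 23.9% of all genes tested. They were the calls among 10 tested smooth muscle genes, whose median was 0.71, beside 2.68% of all genes tested that were called higher. Mylk lost its call without replicate 2 of E14.5 (1.07) or replicate 1 of E12.5 (0.99).

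Of 20 tested genes for collagens and other matrix proteins, 10 rose, beside 2.68% of all genes tested, and none fell, with a median of 0.93. Of the 20, 18 were higher in both E14.5 arrays than in both E12.5 arrays, as were 23.9% of all genes tested. Dcn, the proteoglycan decorin, read 3189 and 3170.5 at E14.5, against 1325 and 1369.8 at E12.5 (log2 change 1.24, SE 0.14, adjusted p = 3.42e-04). Lum, its relative lumican, read 1839.8 and 2009.9 at E14.5, against 947 and 809.6 at E12.5 (log2 change 1.13, adjusted p = 5.39e-04). Eln, elastin, read 278 and 269 at E14.5, against 39.9 and 29.01 at E12.5 (log2 change 2.87, adjusted p = 0.00182), though a second, dimmer Eln probe set rose by 0.54 on the log2 scale and did not pass. Ogn, osteoglycin, read 409.7 and 428 at E14.5, against 121 and 61.96 at E12.5 (log2 change 2.22, adjusted p = 0.00223). All 4 passed whichever array was left out. Mgp, matrix Gla protein, read 1456 and 1053 at E14.5, against 696 and 471 at E12.5 (log2 change 1.11, adjusted p = 0.01), and lost its call without replicate 1 of E14.5 (0.88) or replicate 2 of E12.5 (0.83). With single arrays left out, 5 to 9 members of the list passed. Aspn, asporin, a matrix proteoglycan among the 15 largest rises, read 230.1 and 241 at E14.5, against 12.96 and 13.2 at E12.5 (log2 change 3.81, adjusted p = 6.09e-04).

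Basement membrane genes gave 1 call among 13 tested, or 7.69%, beside 3.89% of all genes tested. Of the 13 changes 12 were positive, as were 5814 of the 12332 over all genes. Lama2, a laminin chain, read 61.4 and 70.6 at E14.5, against 15.3 and 19.6 at E12.5 (log2 change 1.71, adjusted p = 0.0063), a call lost without replicate 2 of E14.5 (1.61) or replicate 1 of E12.5 (1.56). Hspg2, perlecan, read 63.8 and 71.9 at E14.5, against 20.01 and 38.03 at E12.5 (adjusted p = 0.0685). In WT testis 9 of the 13 rose, beside 6.67% of all genes tested, and the difference between the genotypes did not pass for any member. Of 12 interstitial genes, Wnt5a, a secreted WNT protein, was the one call, with 1623 and 1714 at E14.5, against 769 and 1015 at E12.5 (log2 change 0.91, adjusted p = 0.0321), and it passed only when replicate 2 of E12.5 was the array left out. Nr2f1, a nuclear receptor of interstitial progenitors, read 989 and 1239 at E14.5, against 2188 and 1858 at E12.5 (adjusted p = 0.0507). None of 9 tested targets and receptors of desert hedgehog, the Sertoli cell signal to the interstitium, passed, and Ptch1, its receptor, read 4041 and 4204 at E14.5, against 3492 and 3303 at E12.5 (adjusted p = 0.472).

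Several smaller lists held 2 to 4 calls each. The share called was 18.2% for the insulin-like growth factor system and 15.4% for immediate early and heat shock genes. It was 33.3% for retinoic acid genes, beside 3.89% of all genes tested. Igfbp2, a binding protein of insulin-like growth factors, read 1956 and 2049.6 at E14.5, against 674 and 781 at E12.5 (log2 change 1.46, adjusted p = 5.19e-04), and Igfbp6 read 58.4 and 34.1 at E14.5, against 13.9 and 11.6 at E12.5 (log2 change 1.54, adjusted p = 0.0277), 2 of 11 tested genes of that system, of which Igfbp6 passed only when replicate 2 of E14.5 was the array left out. Hspa1a read 87.1 and 87.00 at E14.5, against 19.19 and 19.6 at E12.5 (log2 change 1.96, adjusted p = 0.00208). Hspa1b read 1333 and 1301 at E14.5, against 318 and 403 at E12.5 (log2 change 1.87, adjusted p = 0.0125). These inducible heat shock genes are nearly identical copies that probes may not separate, they answer to handling of tissue, and they were the 2 calls among 13 tested immediate early and heat shock genes, 11 of which were higher in both E14.5 arrays than in both E12.5 arrays, as were 23.9% of all genes tested. Hspa1b did not pass without replicate 1 or replicate 2 of E14.5 or without replicate 1 of E12.5. Rbp4, the carrier of retinol, read 47.7 and 69.7 at E14.5, against 11.9 and 7.51 at E12.5 (log2 change 2.19, adjusted p = 2.59e-04). Aldh1a1, an enzyme that makes retinoic acid, read 4041 and 4153 at E14.5, against 1482 and 2169 at E12.5 (log2 change 1.19, adjusted p = 0.032), whereas Aldh1a2, another such enzyme, fell, with 713 and 623 at E14.5, against 1394 and 969 at E12.5 (log2 change -0.80, adjusted p = 0.0313). Crabp1, which binds retinoic acid in the cytoplasm, fell as well, with 159 and 128 at E14.5, against 744 and 619 at E12.5 (log2 change -2.22, adjusted p = 0.00399). Of the 12 tested retinoic acid genes these 4 passed, and only Rbp4 did so without replicate 1 of E12.5. Aldh1a1 and Aldh1a2 were also lost without replicate 1 or replicate 2 of E14.5.

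Several of the largest rises lay outside the lists. Nxf2, a germ cell relative of an mRNA export factor, read 357 and 234 at E14.5, against 6.18 and 5.14 at E12.5 (log2 change 4.93, adjusted p = 2.85e-05). Tktl1, a transketolase-like gene on the X chromosome, read 126 and 206 at E14.5, against 4.48 and 6.14 at E12.5 (log2 change 4.16), Tex12, a central element protein of the synaptonemal complex, read 206 and 295 at E14.5, against 13.5 and 10.4 at E12.5 (log2 change 3.98), and Tex19.2, a germ cell gene, read 161 and 157 at E14.5, against 8.03 and 11.3 at E12.5 (log2 change 3.58). The gene 4930447C04Rik read 232 and 397 at E14.5, against 33.9 and 18.1 at E12.5 (log2 change 3.41). Ephx1, the microsomal epoxide hydrolase, and Gsta2, a glutathione transferase, are enzymes of detoxification. Ephx1 read 666 and 479 at E14.5, against 15.8 and 39.1 at E12.5 (log2 change 4.28) and Gsta2 read 615 and 336 at E14.5, against 19.4 and 19.4 at E12.5 (log2 change 4.29). Clps, known as the pancreatic lipase cofactor colipase, read 118 and 142 at E14.5, against 4.96 and 4.63 at E12.5 (log2 change 3.93, SE 0.22, adjusted p = 8.85e-07). Stages without overlap were a condition for naming these 8 genes among the largest rises. Leaving out a single KO testis array could therefore not change their sign.

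The largest falls included genes known from nerve, blood and the tissue around the gonad. Chgb, chromogranin B of neuroendocrine granules, read 6.47 and 10.6 at E14.5, against 689 and 98.2 at E12.5 (log2 change -4.43, adjusted p = 0.0011), so that the E12.5 arrays lie far apart, and its change was -3.05 without replicate 1 and -5.81 without replicate 2 of that stage. Nefm and Nefl, neurofilament chains of axons, were also higher in replicate 1 than in replicate 2 of E12.5. Nefm read 68.4 and 38.6 at E14.5, against 693 and 218 at E12.5 (log2 change -2.82, adjusted p = 0.00214), and without replicate 1 of E12.5 its change was -1.999. Nefl read 21.3 and 14.5 at E14.5, against 290.1 and 48.7 at E12.5 (log2 change -2.53, adjusted p = 0.023), and without that array -1.28, no longer past the threshold, which it also missed without replicate 1 or replicate 2 of E14.5. Crh, corticotropin-releasing hormone, read 4.41 and 4.17 at E14.5, against 85.05 and 127 at E12.5 (log2 change -3.70, adjusted p = 4.52e-05). Of 12 tested genes of chromaffin cells and sympathetic neurons Chgb alone passed in KO testis, where 1.22% of all genes tested fell. In WT testis 10 fell, beside 3.82% of all genes tested, and the genotype difference passed for none. Their summed intensity was 645 and 776 in KO testis at E14.5, against 2099 and 922 at E12.5. Dbh, the enzyme that makes noradrenaline, read 4.73 and 5.82 at E14.5, against 55.9 and 11.8 at E12.5 (adjusted p = 0.139).

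Hbb-bh1, an embryonic beta-like globin, read 1218 and 708 at E14.5, against 11149.5 and 11201 at E12.5 (log2 change -3.58, adjusted p = 7.88e-04), and Hba-x, the embryonic alpha-like globin, read 3189.8 and 2385 at E14.5, against 7974 and 9467 at E12.5 (log2 change -1.65, adjusted p = 0.0125). Hbb-y, another embryonic globin, read 14443 and 16902 at E14.5, against 17694 and 21352 at E12.5 and did not pass (adjusted p = 0.363). Globin genes resemble one another, so probe sets may share signal. The summed intensity of the erythroid list was 19627 and 21432 at E14.5, against 38859.7 and 43974 at E12.5. These were the 2 calls among 8 tested erythroid genes, whose median was -0.58, beside 1.22% of all genes called lower. None of the 8 changes was positive, 6 were lower in both E14.5 arrays than in both E12.5 arrays, a pattern seen in 25.9% of all genes tested, and Hba-x passed only when replicate 1 of E14.5 was the array left out.

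Calb1, the calcium-binding protein calbindin of duct epithelium, read 10.9 and 11.1 at E14.5, against 151 and 189 at E12.5 (log2 change -3.53, adjusted p = 4.50e-04). It was the one call among 12 tested mesonephros and duct genes, or 8.33%, beside 3.89% of all genes tested. Foxd1, a transcription factor of renal and other stroma, read 138 and 93.4 at E14.5, against 1045 and 698 at E12.5 (log2 change -2.87, adjusted p = 6.21e-05), and Tbx18, one of the mesenchyme of the urogenital ridge, read 27.4 and 11.5 at E14.5, against 195 and 70.5 at E12.5 (log2 change -2.47, adjusted p = 0.00779). Without replicate 1 of E12.5 the change of Tbx18 was -1.76 and without replicate 2 of E14.5 -1.96, neither past the threshold. Col9a1 and Col2a1, collagens known from cartilage, fell as well. Col9a1 read 55.1 and 57.5 at E14.5, against 369 and 412 at E12.5 (log2 change -2.71), and Col2a1 read 24.9 and 15.9 at E14.5, against 152 and 124 at E12.5 (log2 change -2.56). Cxcl13, a chemokine, read 25.8 and 11.5 at E14.5, against 286 and 161 at E12.5 (log2 change -3.34, adjusted p = 1.49e-04), and Pnliprp2, a pancreatic lipase-related protein, read 16.6 and 12.7 at E14.5, against 228 and 337 at E12.5 (log2 change -3.92, adjusted p = 1.70e-04). L1td1, an RNA-binding protein of pluripotent cells, read 132 and 122 at E14.5, against 598 and 886 at E12.5 (log2 change -2.48, adjusted p = 0.0121), but was lost without any 1 array. Epha4, an ephrin receptor, read 18.03 and 64.00 at E14.5, against 179 and 215 at E12.5 (log2 change -2.37, adjusted p = 0.00643), with -1.56 without replicate 1 of E14.5, where it did not pass, and -3.19 without replicate 2. Dimmer probe sets changed by -0.62, -0.32 and -0.18 for Epha4, -0.60 for Col9a1 and -0.95 for Tbx18, and none passed when every probe set was tested. Of the 84 named genes that passed, 27 had another probe set, all with the same sign. In 17 of them some other probe set passed.

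Other lists held 1 call or none, beside calls for 3.89% of all genes tested. Hey1, a Notch target of arteries, was the one call among 9 arterial genes, with 102 and 65.1 at E14.5, against 180.4 and 208 at E12.5 (log2 change -1.21, adjusted p = 0.0459), and was lost without any 1 array. Aldh1a2 was the one call among 8 genes of the surface epithelium. None passed among 16 endothelial, 14 macrophage, 14 WNT feedback, 19 proliferation, 14 cell cycle inhibitor and 15 imprinted genes, with list medians of -0.06, 0.03, 0.09, -0.12, 0.13 and -0.09. In the self-test on simulated data 42 of 100 genes changed 2-fold and 93 of 100 changed 4-fold were recovered for this comparison over 12332 genes, with 8 unchanged genes called, so smaller changes in these lists were not detectable with certainty at this number of arrays.

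In WT testis the same 2 days gave 1293 calls, 10.5% of genes tested, with 822 higher (6.67%) and 471 lower (3.82%). Of the 480 genes called in KO testis, 356 were also called in WT testis, which is 74.2% of the KO calls and 27.5% of the WT calls, and 0 were called in opposite directions. All 330 genes that rose in KO testis had a positive change in WT testis, and 142 of the 150 that fell had a negative one, beside 72.7% of all genes tested with the same sign in both genotypes. The median change of the genes that rose was 1.51 in KO testis and 1.44 in WT testis, and that of the genes that fell was -1.24 in KO testis and -0.91 in WT testis. These genes were chosen by their change in KO testis, so their medians there are a description. With the nearly alike E12.5 arrays of WT testis counted as 1 sample, both counts were lower. Fewer genes then passed in WT testis than in KO testis, so the larger WT count depended on those arrays being counted as 2. That setting also has fewer arrays, and the cause of the lower counts was not tested.

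**Figure D4:**
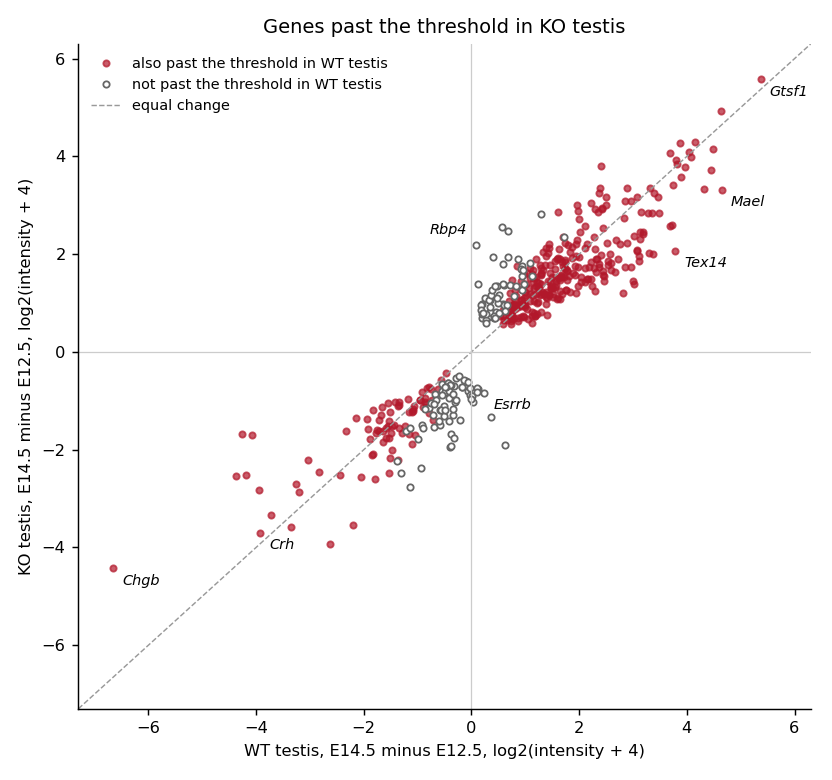
Change from E12.5 to E14.5 in KO testis (vertical axis) against that in WT testis (horizontal axis), both E14.5 minus E12.5 in log2(intensity + 4), for the 480 genes past the threshold in KO testis; filled points also passed in WT testis and the dashed line marks equal change. All 330 genes that rose in KO testis lie right of 0.

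The test of the difference itself, the change in KO testis minus the change in WT testis, passed for 1 gene, or 0.00811% of those tested, and 558 genes had an unadjusted p under 0.05. That gene was Galnt5, a transferase that starts O-linked sugar chains. It read 5.73 and 10.9 at E14.5, against 5.77 and 6.32 at E12.5 in KO testis, and 49.01 and 52.8 at E14.5, against 5.53 and 5.04 at E12.5, in WT testis. Both WT arrays of E14.5 lie above all KO testis arrays, and the difference of the changes was -2.30 (SE 0.26, adjusted p = 0.00728). With single arrays left out the number of genes past the threshold ran from 0 to 7, and it was 0 without either E12.5 array of WT testis, without replicate 2 of WT testis at E14.5, without replicate 2 of KO testis at E12.5, and with the nearly alike WT arrays counted as 1 sample. For Cyp17a1 the difference was -1.63 (SE 2.21, adjusted p = 0.985), with WT readings of 3787 and 2851 at E14.5, against 15.9 and 15.3 at E12.5. For Mael it was -1.34 (SE 0.74, adjusted p = 0.985), with WT readings of 858 and 1716 at E14.5, against 45.9 and 43.04 at E12.5. Tex14 had -1.71 (SE 0.46, adjusted p = 0.929), and its E12.5 arrays read 133 and 134 in KO testis and 32.6 and 30.3 in WT testis. Rbp4 rose in KO testis, while in WT testis it read 20.6 and 13.9 at E14.5, against 14.3 and 17.4 at E12.5, and its difference of 2.10 did not pass (adjusted p = 0.178). An adjusted p above the threshold does not show that the genotypes changed alike.

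In KO ovary the stage change gave 1697 calls, 13.8% of genes tested, with 659 higher (5.34%) and 1038 lower (8.42%). The change in KO testis minus the change in KO ovary passed for 158 genes, 1.28% of those tested, 115 with a higher and 43 with a lower value in the testis, and 2228 had an unadjusted p under 0.05. Of the 115, 60 had risen in KO testis and 56 had fallen in KO ovary. Of the 43, 41 had risen in KO ovary. The count was 587 without replicate 2 of KO ovary at E12.5, the array with Y-linked RNA, 77 without the Xist-positive array of KO testis, and 31 to 70 without any other single array of the comparison. Clps had the smallest p. It read 118 and 142 in KO testis at E14.5 and 5.06 and 4.46 in KO ovary at E14.5, and 4.96 and 4.63 in KO testis and 5.17 and 3.58 in KO ovary at E12.5, so that the testis arrays of E14.5 stand apart from the rest (difference 3.85, SE 0.32, adjusted p = 1.70e-04).

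Rrad, a small GTPase, read 65.6 and 65.97 in KO testis at E14.5, against 5.71 and 4.45 at E12.5. In KO ovary Rrad read 6.82 and 9.23 at E14.5, against 5.61 and 6.46 at E12.5 (difference 2.69, adjusted p = 3.94e-04). Scd1, a desaturase of fatty acids, read 106 and 95.5 at E14.5, against 23.04 and 25.8 at E12.5 in KO testis, and 27.9 and 34.1 at E14.5, against 58.03 and 53.6 at E12.5, in KO ovary (difference 2.66, adjusted p = 0.00404). The piRNA helicase Tdrd9 read 9.90 and 10.7 at E14.5, against 6.85 and 6.88 at E12.5, in KO ovary (difference 1.82, adjusted p = 0.00182). Th, tyrosine hydroxylase of catecholamine cells, differed through the ovary: it read 5.04 and 4.93 at E14.5, against 9.45 and 5.33 at E12.5 in KO testis, and 4.42 and 3.53 at E14.5, against 127 and 62.1 at E12.5, in KO ovary (difference 3.23, adjusted p = 0.00182).

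Among the 10 genes with the smallest p, 5 had a lower value in the testis, and 3 of those are meiotic genes. M1ap, a meiosis-associated protein, read 7.17 and 11.1 at E14.5, against 5.41 and 5.23 at E12.5 in KO testis, and 369 and 665 at E14.5, against 5.49 and 5.80 at E12.5, in KO ovary (difference -5.22, adjusted p = 2.79e-04). Dmc1, the meiotic recombinase, read 11.2 and 15.2 at E14.5, against 7.39 and 5.93 at E12.5 in KO testis, and 195 and 272 at E14.5, against 3.74 and 6.44 at E12.5, in KO ovary (difference -4.03, adjusted p = 0.00205). Syce1, which had passed in KO testis, read 733 and 672 at E14.5, against 14.6 and 25.96 at E12.5, in KO ovary (difference -3.44, adjusted p = 0.00657). Adamdec1, a secreted metalloprotease, read 4.33 and 17.5 at E14.5, against 4.70 and 4.73 at E12.5 in KO testis, with the Xist-positive array the highest, and 335 and 435 at E14.5, against 4.70 and 6.04 at E12.5, in KO ovary (difference -4.75, adjusted p = 0.00657). Cyp2r1, a vitamin D hydroxylase, read 7.13 and 8.32 at E14.5, against 8.69 and 8.04 at E12.5 in KO testis, and 37.4 and 42.4 at E14.5, against 6.26 and 5.38 at E12.5, in KO ovary (difference -2.24, adjusted p = 0.00182). Of the 22 meiotic genes 21 rose in KO ovary and 4 in KO testis, beside 5.34% and 2.68% of all genes tested. The difference passed for 6 of them, beside 1.28% of all genes tested.

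**Figure D5:**
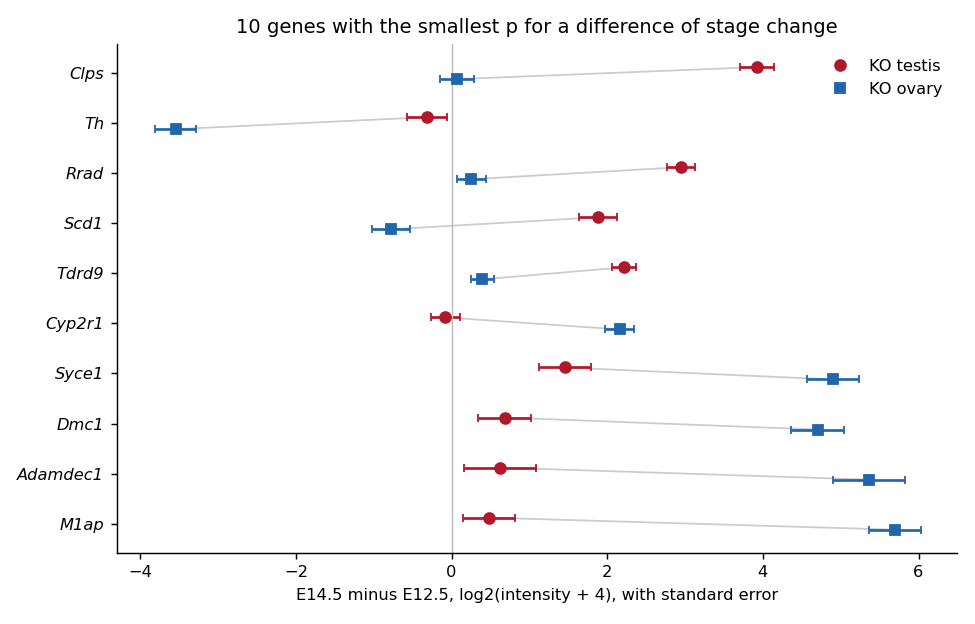
Stage change (E14.5 minus E12.5, log2(intensity + 4), points with standard errors) in KO testis (red circles) and KO ovary (blue squares) for the 10 genes with the smallest p for a difference. The differences of Clps, Rrad, Scd1, Tdrd9 and Th are positive, while M1ap, Adamdec1, Dmc1, Syce1 and Cyp2r1 rose in ovary.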

How the data were processed

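Gene expression was measured with 16 Affymetrix Mouse Genome 430 2.0 arrays, 8 groups of 2. The deposited table holds the authors' linear array intensities per probe set. The submitters' processing notes name MAS5, while the sources used here give neither version nor scaling target. Of 45101 probe sets, 34945 had 1 gene symbol in the platform annotation, 932 had several, 9160 none and 64 were controls. Of the symbols, 34741 were updated through RefSeq.

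Values were taken as log2(intensity + 4), an offset of 4. A probe set was used if it exceeded the median of its array on 2 or more arrays, which left 22178, and the one with the highest mean stood for its gene. limma 3.58.1 in R 4.3.3 fitted 1 mean per group over all 16 arrays, with moderated variances and an intensity trend. Two-sided p-values were adjusted by Benjamini-Hochberg across the 12332 genes, 0.05 was the threshold, and the fit was tested on simulated data. Wnt4, Cyp17a1, Mael and sex-linked genes were named, and the 15 largest rises and 15 largest falls among genes past the threshold without overlap and with a mean of at least 100 in the higher group. From each list at most 5 members, and for each difference at most 10 genes, with the smallest p were named too, and a few other list members as noted. The 31 lists hold 448 genes, of which 395 were tested. Members and lists were chosen with earlier results of these data known. Other filters, scalings, offsets, blocks and left-out arrays were tried.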

Additional observations from a re-analysis of the deposited data

Results flagged for a closer look

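The stage change of 1 named gene differed between KO testis and WT testis by the test of the difference itself: for Galnt5 the change in KO testis minus that in WT testis was -2.30 on the log2 scale.

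The stage change of 27 named genes differed between KO testis and KO ovary by the same kind of test, given here as the change in KO testis minus that in KO ovary on the log2 scale. Of the steroid and cholesterol genes, the difference was 1.87 for Fdx1, 2.84 for Scarb1, 2.72 for Dhcr7, 3.89 for Cyp11b1 and 2.20 for Cyp21a1. Cyp11b1 read 53.8 and 30.7 in KO testis at E14.5 and 6.504 and 11.4 in KO ovary at E14.5, and 16.8 and 8.72 in KO testis and 113 and 36.2 in KO ovary at E12.5, so that replicate 1 of KO ovary at E12.5 is the highest of the 8. Among the 15 tested piRNA genes the difference passed for 4 and did not for 11, beside 1.28% of all genes tested that passed. It was 1.91 for Gtsf1, 1.82 for Tdrd9, 3.71 for Piwil4 and 3.36 for Tdrd5. Gtsf1 was also called higher in KO ovary, with 86.04 and 97.8 at E14.5, against 3.60 and 3.49 at E12.5.

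Stroma genes with a difference were Acta2 with 1.70, Eln with 2.87 and Lama2 with 2.15. The same sign was found for Hspa1a with 2.42, Rbp4 with 1.69, Gsta2 with 3.04, Ephx1 with 4.61, Clps with 3.85, Rrad with 2.69, Th with 3.23 and Scd1 with 2.66. Differences of the opposite sign were -1.50 for Tdgf1, -3.44 for Syce1, -1.61 for Rec8, a cohesin subunit of meiosis, -5.22 for M1ap, -4.03 for Dmc1, -2.24 for Cyp2r1 and -4.75 for Adamdec1. The 8 arrays include the Xist-positive KO testis array of E14.5 and the KO ovary array of E12.5 with Y-linked RNA, and the difference passed for 77 of all genes without the first and for 587 without the second.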

How the results depend on the processing

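With 2 arrays per group the number of genes past the threshold depended on single arrays. Leaving out 1 array at a time gave 179 to 499 genes in KO testis, 263 to 733 in WT testis, 436 to 2745 in KO ovary, 0 to 7 for the difference from WT testis and 31 to 587 for the difference from KO ovary. The number in KO testis was 230 for genes with a mean intensity of at least 100, 216 at a threshold of 0.01 and 811 with the opposite-sex RNA share as a covariate. In WT testis it was 466 at a threshold of 0.01, 763 with a log2 change of at least 1, 3939 with array weights, 3370 with the spread taken from the arrays compared and 301 with the nearly alike arrays averaged. In KO ovary it was 522 at a threshold of 0.01, 1044 with a log2 change of at least 1, 2973 with the opposite-sex share, 413 with the 3'/5' ratio as a covariate, 698 with the spread of its own arrays and 1130 with the WT arrays averaged. For the difference from WT testis it was 0 with a mean of at least 100, 0 with the spread of the arrays compared, 0 with the WT arrays averaged and 3 with array weights. For the difference from KO ovary it was 26 with a mean of at least 100, 249 with array weights, 69 with every probe set tested, 18 at a threshold of 0.01, 269 with the opposite-sex share and 70 with the WT arrays averaged.

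The remaining omissions were chosen after seeing the data. Leaving out the Xist-positive array and the E12.5 array with the high 3'/5' ratio gave 96 genes in KO testis, 2 for the difference from WT testis and 25 for that from KO ovary. Leaving out the Xist-positive arrays of KO and WT testis gave 241, 2 and 80, and 322 in WT testis. Some of these settings also have fewer arrays or genes, and the cause of the shifts was not tested.

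The replicate numbers do not show a pairing between the stages. Deviations of same-numbered arrays of the stages correlated across genes at 0.03 in KO testis, -0.07 in WT testis and -0.14 in KO ovary. Same-numbered arrays of KO and WT testis within a stage were not compared in this way. A pairing across the genotypes was therefore not tested, and the Xist-positive arrays of KO and WT testis carry the same replicate number. With the replicate number as a block 446 genes passed in KO testis, 431 of them among the 480. Crossing the numbers of KO ovary, also chosen after seeing the data, gave 1405 calls there.

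Of 3070 values of 124 named genes under these settings, 2712 kept their direction and side of the threshold, 273 lost the threshold, 67 gained it and 18 changed sign. None of those 18 had passed. Wnt4 was -0.14 over the mean of its probe sets, -0.042 with the opposite-sex share, and -0.36 to 0.47 with single KO testis arrays left out. The ranges over single arrays left out were -0.0044 to 6.05 for Xist, -0.37 to 0.78 for Foxl2, -0.046 to 0.57 for Galnt5 and -0.066 to 1.304 for Adamdec1, each lowest without replicate 2 of E14.5, the Xist-positive array. With replicate 2 of WT testis left out as well, these 4 values were the same and that of Wnt4 was -0.15. Without the pair of doubtful KO arrays they were -0.0030 for Xist, -0.54 for Foxl2, -0.085 for Galnt5 and -0.068 for Adamdec1, and Foxl2 was -0.13 with the opposite-sex share.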
